A study of Mus musculus with 30 samples.

Results

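Imprinted genes are expressed mainly or only from the copy inherited from 1 parent, because a methylation mark set in the egg or the sperm is kept on 1 allele through cell division. Many of them act on growth of the embryo and the placenta, and in mouse embryonic stem (ES) cells their marks are kept by factors such as ZFP57 and TRIM28 or can be lost in culture. The 10 protein-coding genes described here, out of 55401 genes in the count tables, were taken by name: Igf2, Igf2r, Cdkn1c, Peg3, Peg10, Mest, Plagl1, Grb10, Dlk1 and Impact. Igf2 encodes a growth factor of the embryo, and Igf2r the receptor that takes it to the lysosome. Cdkn1c encodes a cyclin-dependent kinase inhibitor, Peg3 and Plagl1 zinc finger proteins, and Peg10 a protein derived from a retrotransposon that is needed for the placenta. Mest encodes a member of the hydrolase fold family, Grb10 an adaptor that dampens insulin receptor signalling, Dlk1 a transmembrane relative of the Notch ligands, and Impact a regulator of GCN2 signalling. Igf2, Peg3, Peg10, Mest, Plagl1, Dlk1 and Impact are known as paternally expressed, Igf2r and Cdkn1c as maternally expressed, and Grb10 depends on isoform and tissue. The counts do not tell the parental alleles apart, so only total levels are given.

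Nuclear RNA was sequenced from mouse ES cells in which SRCAP, the catalytic subunit of the complex that places the histone variant H2A.Z, can be degraded. SYAT cells come from 1 homozygous clone of the line CGR8 that carries YPet-AID on both alleles of Srcap, and they express the plant receptor OsTir1, so that 500 µM indole-3-acetic acid (IAA) leads to degradation of SRCAP. The 30 libraries form 15 groups of 2 biological replicates in 4 count tables: CGR8 without degron after 0 or 4 h of IAA; SYAT after 0, 2, 4, 6 or 8 h; SYAT cells with a mitotic degron reporter, sorted in early G1 (EG1) or late G1 (LG1) after 0 or 1 h; and SYAT cells that also carry doxycycline-inducible SRCAP-mCherry, wild-type (wtSRCAP) or catalytically dead (cdSRCAP), after 0 or 4 h. All wtSRCAP and cdSRCAP cells, controls included, received 1 µg/mL doxycycline for 24 h and were sorted for mCherry, and each of these lines is 1 clone. SYAT controls were kept in the OsTir1 inhibitor auxinole. The cells were grown in serum and LIF before the experiments, and levels are compared only within a table.

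Exon columns, which are used first throughout, held 45617992 to 60214521 counts per library in CGR8, 17540823 to 22873893 in the time course, 19740778 to 26672402 in the sorted cells, and 12236493 to 26369773 in wtSRCAP and cdSRCAP cells. Levels are CPM, counts scaled to a common library size with edgeR's TMM factors. Replicate 2 of the 6 h group stood apart, with the lowest TMM factor of the time course, 0.854. Srcap mRNA, whose protein is the target, stayed between 39.9 and 60.2 CPM in the time course and did not pass the test at any time. All 10 ES cell markers examined were present in every library, at 19 CPM or more. Of 7 trophoblast markers examined, Tpbpa and Prl3d1 had no count in any library, but others were expressed. The 7 summed to 20.8 to 31.7 CPM in CGR8 and 62.0 to 139 CPM in the time course. Their sums were 149 to 194 CPM in sorted cells and 28.3 to 139 CPM in wtSRCAP and cdSRCAP cells.

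The members lie on chromosomes 6, 7, 10, 11, 12, 17 and 18. Igf2r (ENSMUSG00000023830.14) spans positions 12682406 to 12769664 of chromosome 17 on the minus strand (GRCm38, mm10) with 49 exon blocks, and its introns are crossed by the antisense RNA Airn. Peg10 (ENSMUSG00000092035.8) spans positions 4747306 to 4760517 of chromosome 6 on the plus strand. Exons of Igf2, Cdkn1c, Mest and Plagl1 overlap exons of another annotated gene, for Mest the gene Copg2 on the opposite strand. Of the 10 members, 7 have promoter entries in RefSeq's table for GRCm38.p6, with 13 windows of 300 bases in all; Cdkn1c, Peg10 and Impact have none. The hexamer TGCCGC, which is the core bound by ZFP57 when it is methylated, was searched in both directions (TGCCGC and GCGGCA). It was found in 5 of the 13 windows, from Igf2, Mest, Plagl1 and Grb10, against 11.6% of all 32851 promoter windows. Both Mest windows that hold it start 3 bases apart, so these are not independent. The Igf2r window had 34 CpG dinucleotides and the Grb10 window at position 12037371 had 45, where the median of all windows was 7.0 and the upper quartile 20.

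2 promoters are printed from the 250 bases before the start, 5′ to 3′: that of Igf2r, the member with the lowest level late in the time course relative to control, with its 27 CpG in capitals (chr17:12769707-12769956, minus strand), and that of Mest, the member with the highest number of matches, with both GCGGCA in capitals (chr6:30737800-30738049, plus strand). These letters describe the windows and not binding or methylation, which were not measured in these files.
Igf2r: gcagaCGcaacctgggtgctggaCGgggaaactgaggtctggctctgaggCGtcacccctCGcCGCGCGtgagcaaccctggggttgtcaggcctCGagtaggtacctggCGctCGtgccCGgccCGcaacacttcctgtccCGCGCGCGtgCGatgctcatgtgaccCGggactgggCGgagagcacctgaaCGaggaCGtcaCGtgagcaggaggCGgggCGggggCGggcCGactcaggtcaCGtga
Mest: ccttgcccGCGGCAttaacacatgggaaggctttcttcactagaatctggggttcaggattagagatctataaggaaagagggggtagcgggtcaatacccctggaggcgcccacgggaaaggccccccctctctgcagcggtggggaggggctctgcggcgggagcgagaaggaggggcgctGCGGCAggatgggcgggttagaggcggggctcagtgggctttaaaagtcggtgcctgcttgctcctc

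Peg10 was the most abundant member per kilobase of exon in the controls of every table, and Igf2 the least abundant. In SYAT control cells Peg10 reached 189 ± 12 CPM per kb (SD, n = 2), followed by Mest at 80.7 ± 0.42, Impact at 63.6 ± 1.3, Peg3 at 20.6 ± 1.7 and Igf2r at 16.4 ± 0.20. Cdkn1c at 7.21 ± 0.65, Grb10 at 4.60 ± 1.7, Plagl1 at 1.93 ± 0.54 and Dlk1 at 0.816 ± 0.16 were lower, and Igf2 had 0.109 ± 0.021. The library ranges of neighbours in this order did not overlap. The same 3 genes, Peg10, Mest and Impact, had the highest means in all control groups. Mest and Impact changed places in sorted EG1 and LG1 cells, and in EG1 their ranges overlapped. The ranges of Mest and Igf2r overlapped in both EG1 and LG1 controls. In the wtSRCAP controls Cdkn1c at 2.51 ± 2.2 and Grb10 at 1.48 ± 0.20 CPM per kb overlapped. Igf2, with 0.164 to 3.32 CPM in any library, and Dlk1, with 1.63 to 8.32 CPM were the members with the fewest counts.

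After SRCAP degradation, no member passed the threshold at any time, an absolute log2 fold change over 0.5 with an adjusted p under 0.05 in edgeR's quasi-likelihood test. The backgrounds were 0.0% of the 19205 genes tested at 2 h, 0.0% at 4 h, 0.0677% at 6 h and 0.00521% at 8 h, so 0 of 10 members lay at the share of all genes. Igf2r was the member nearest to the threshold and showed its lowest levels at 8 h. At an unadjusted p under 0.05 there were 2 members at 6 h, Igf2r and Mest, and 1 at 8 h, Igf2r. Over all 14 exon comparisons, 5 of 140 member tests had such a p. These counts are not set beside the share of all genes at that cut and are not read as a result about the members. DESeq2 called 1 member, Igf2r at 8 h, and its share of all genes is given below. With 2 libraries per group, a value that missed the threshold does not show that levels were alike.

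Igf2r had 154 and 151 CPM in the 2 control libraries, 140.2 and 147 at 2 h, 134 and 119.5 at 4 h, 111 and 133 at 6 h, and 98.2 and 97.1 at 8 h. Every treated library lay below both controls, and both 8 h libraries lay below all others. The group mean was 152 ± 1.82 CPM in control and 97.7 ± 0.836 at 8 h (SD, n = 2). The log2 fold change of Igf2r by edgeR was -0.08 ± 0.13 (SE) at 2 h, -0.27 ± 0.13 at 4 h, -0.33 ± 0.13 at 6 h and -0.64 ± 0.13 at 8 h, with adjusted p of 1.00, 0.592, 0.256 and 0.0830. At 8 h the call depends on the setting, and among the settings that made it the adjusted p was 0.0200 in DESeq2 and 0.0217 without the filter on low counts, where 1.05% and 1.25% of all genes were called. Leaving out any 1 of the 4 libraries gave log2 fold changes from -0.66 to -0.63 and adjusted p from 0.189 to 0.506. Without replicate 2 of the 6 h group, the 6 h value of Igf2r was -0.46 ± 0.11.

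Genes with all 8 treated libraries below both controls made up 9.2% of the genes tested, and those with all 8 above made up 5.97%. Igf2r was the member in the first set and Mest the member in the second, so 1 of 10 members lay in each. The 7 primitive endoderm markers summed to 244 to 251 CPM in the controls and 269 to 357 CPM in the treated libraries, and the 5 mesoderm markers to 9.25 to 12.7 CPM in the controls and 13.6 to 23.5 CPM in the treated libraries. The 10 ES cell markers summed to 2295 to 2781 CPM in the controls and 2506 to 3914 CPM in the treated libraries, which overlapped. Sums of the other lists overlapped too. In controls and treated libraries, trophoblast markers summed to 62.0 to 114 and 77.1 to 139 CPM. Neuroectoderm markers summed to 131 to 220 and 132 to 230 CPM, and fibroblast markers to 24.0 to 29.4 and 24.8 to 39.9 CPM. The part of these lists in the Igf2r values was not tested. In bulk RNA a lower level in every cell and a lower share of expressing cells cannot be told apart.

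**Figure D1:**
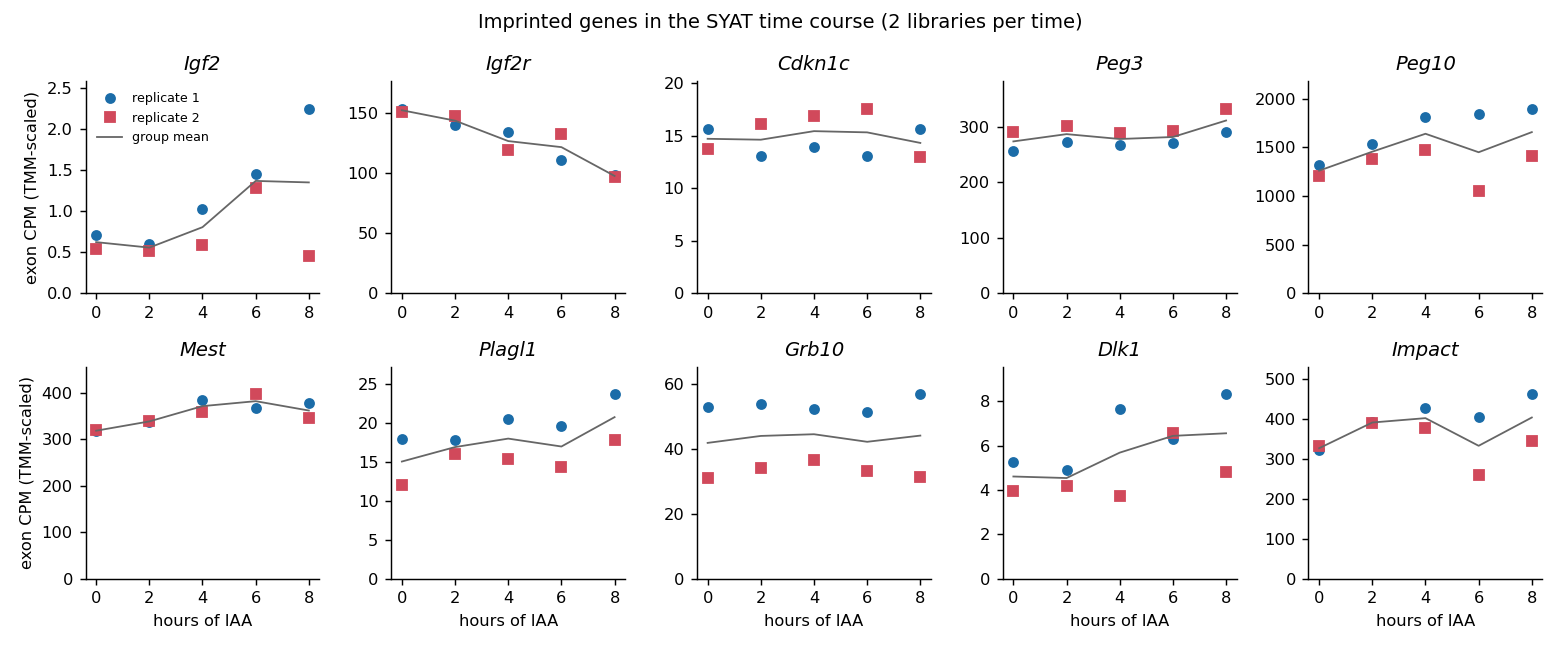
Exon CPM of the 10 members (y axes start at 0 and differ between panels) against hours of IAA in SYAT cells, with a point per library and a line through the group means. Igf2r goes from 154 and 151 CPM in control to 98.2 and 97.1 at 8 h, while the replicates of Grb10 stay apart at all times.

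Among the paternally expressed members with high levels, Peg10, Mest and Impact had values above control at most times, but none passed the test. Peg10 had 1316 and 1206 CPM in control and 1899 and 1417 CPM at 8 h, a log2 fold change of 0.39 ± 0.24 by edgeR. Its 6 h libraries were the farthest apart, at 1845 and 1056 CPM, so that the groups overlapped there, and the 6 h log2 fold change moved from 0.20 to 0.55 without replicate 2 and to -0.25 without replicate 1. Mest had 317 and 319.6 CPM in control, 338 and 339 at 2 h, 384 and 359 at 4 h, 367 and 397 at 6 h, and 379 and 345 at 8 h. All 8 treated Mest libraries were above both controls, by 0.26 ± 0.11 on the log2 scale at 6 h (edgeR, adjusted p = 0.299). Impact had 322 and 331 CPM in control and 461 and 345 at 8 h, with the lowest level of the table, 259 CPM, in replicate 2 of the 6 h group. The Impact log2 fold change was 0.26 at 2 h, 0.30 at 4 h, 0.03 at 6 h and 0.30 at 8 h, each with an SE of 0.20, and the 6 h value was -0.33 without replicate 1 and 0.32 without replicate 2. Peg3 varied little, from 258 to 333 CPM over the 10 libraries, with log2 fold changes of 0.07, 0.02, 0.04 and 0.19 at the 4 times.

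The less abundant members had wide errors. Plagl1 had 18 and 12.1 CPM in control and 23.7 and 17.8 CPM at 8 h, which overlapped, with a log2 fold change of 0.46 ± 0.26 (edgeR, adjusted p = 0.469). Dlk1 had 5.26 and 3.97 CPM in control and 8.32 and 4.81 at 8 h, a log2 fold change of 0.51 ± 0.37. Igf2 had 0.709 and 0.537 CPM in control and 2.25 and 0.452 at 8 h, and its log2 fold change of 1.1 ± 0.66 rested on replicate 1. At 6 h Igf2 had 1.45 and 1.29 CPM, both above the controls, a log2 fold change of 1.14 ± 0.67 (edgeR, adjusted p = 0.429). Igf2, Mest and Dlk1 were the 3 members with both 6 h libraries above both controls, as were 21.5% of all genes. Cdkn1c stayed between 12.9 and 17.6 CPM, with log2 fold changes between -0.04 and 0.07. Grb10 had log2 fold changes between 0.01 and 0.09, and its replicates differed more than its times: replicate 1 held 51.2 to 56.7 CPM and replicate 2 held 30.9 to 36.6 CPM. The median log2 fold change of the members was 0.07, 0.24, 0.12 and 0.25 at 2, 4, 6 and 8 h, against 0.00, 0.02, 0.01 and 0.03 over all genes tested. The 4 comparisons share their controls and are not independent of each other.

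CGR8 cells, which lack the degron, serve to measure what IAA does without SRCAP degradation. No member passed the threshold after 4 h (0.00988% of 20250 genes did), and none had an unadjusted p under 0.05 in the edgeR test. Igf2r had 181 and 214 CPM in control and 185 and 169 CPM with IAA, which overlapped, and its log2 fold change of -0.16 ± 0.14 was nearer to 0 than the 4 h value in SYAT cells, a difference that was not tested since the libraries belong to different tables. Peg10 had 508 and 636 CPM in control and 661 and 740.1 with IAA, a log2 fold change of 0.29 ± 0.15 (edgeR, adjusted p = 0.578). Peg3 was the 1 member with both treated libraries below the controls, at 162 and 150.3 against 167 and 203 CPM, a pattern seen in 20.6% of all genes tested. The log2 fold changes of the other members lay between -0.51 for Igf2 and 0.16 for Cdkn1c and Impact. The median over the 10 was -0.04, where that of all genes was 0.00.

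**Figure D2:**
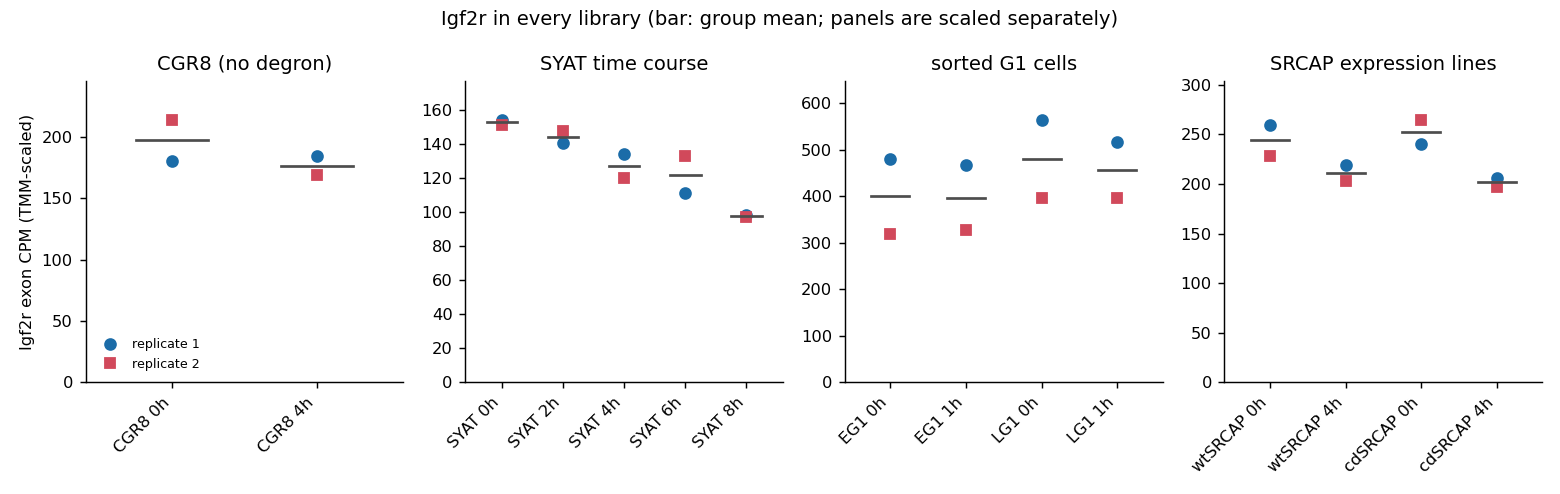
Igf2r exon CPM in each of the 30 libraries (points, by replicate number) with group means (bars), in 4 panels for the 4 count tables, each scaled separately from 0. The IAA-treated libraries lie below their controls in the SYAT time course and in wtSRCAP and cdSRCAP cells, and overlap them in CGR8, EG1 and LG1 cells.

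In cells that express wtSRCAP or cdSRCAP beside the degradable SRCAP, the question was whether wild-type or inactive SRCAP changes the response to 4 h of IAA. No member passed the threshold with wtSRCAP, where 0.00523% of 19111 genes did, or with cdSRCAP, where 0.0% did, and no member had an unadjusted p under 0.05 in edgeR. Igf2r had 259.9 and 228 CPM in wtSRCAP controls and 219 and 203 with IAA, and 241 and 264 CPM in cdSRCAP controls and 206 and 197 with IAA. In both lines the treated libraries lay below the controls, with log2 fold changes of -0.21 ± 0.19 and -0.32 ± 0.19. All genes showed this pattern in 19.5% and 19% of cases. Counted with the time course, Igf2r was lower in all 12 IAA-treated libraries than in every control of its own comparison, as were 4.46% of the 18104 genes tested in both tables. This set leaves out CGR8, EG1 and LG1 cells, where the Igf2r libraries with and without IAA overlapped. Summed primitive endoderm markers were 209 to 213 CPM in the wtSRCAP controls and 260 to 264 with IAA, and 208 to 232 and 234 to 290 CPM in cdSRCAP. Summed mesoderm markers were 3.68 to 5.57 and 7.94 to 12.9 CPM in wtSRCAP and 4.97 to 6.62 and 10.6 to 11.1 CPM in cdSRCAP. Summed fibroblast markers were 6.22 to 7.31 and 13.1 to 13.6 CPM in wtSRCAP and 8.44 to 9.22 and 9.15 to 9.47 CPM in cdSRCAP. For the 10 ES cell markers the sums were 3092 to 3645 and 4034 to 4186 CPM in wtSRCAP and 3547 to 4752 and 4468 to 5305 CPM in cdSRCAP. The part of these lists in the Igf2r values was not tested.

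The other members had log2 fold changes with wtSRCAP between -0.16 for Impact and 1.28 for Igf2, and with cdSRCAP between -0.52 for Igf2 and 0.65 for Grb10. Grb10 had 6.10 and 9.56 CPM in cdSRCAP controls and 11.3 and 13.4 with IAA, which did not overlap, and 12.2 and 14.8 against 13.3 and 16.6 in wtSRCAP, which did. With cdSRCAP, 4 of 10 members (Peg10, Plagl1, Grb10 and Dlk1) had both treated libraries above both controls, as did 18.7% of all genes. With wtSRCAP, 3 of 10 members (Peg3, Mest and Plagl1) did, and 14.9% of all genes. The log2 fold change of Grb10 with cdSRCAP was 0.65 ± 0.30 (edgeR, adjusted p = 0.900). Plagl1 had 6.09 and 7.77 CPM in wtSRCAP controls and 9.46 and 9.43 with IAA. Plagl1 in cdSRCAP went from 9.26 and 8.29 to 10.6 and 9.69 CPM. The log2 fold changes of Plagl1 were 0.44 ± 0.27 and 0.21 ± 0.27. As a test of the difference itself, the IAA response with cdSRCAP minus that with wtSRCAP was past the threshold for 0 members and for 0.0% of all genes, and the differences for single members lay between -1.80 for Igf2 and 0.50 for Grb10. The Igf2r difference was -0.11 ± 0.27.

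Between the lines themselves, Peg10 was the member with the lowest p. Its control libraries held 2264 and 1508 CPM with wtSRCAP and 900.1 and 1048 CPM with cdSRCAP, which did not overlap. With IAA they held 1950.5 and 1750.0 CPM against 1314 and 1210.5 CPM, again without overlap. The log2 fold change of Peg10, cdSRCAP against wtSRCAP, was -0.95 ± 0.25 in control cells (edgeR, adjusted p = 1.00) and -0.55 ± 0.25 with IAA (adjusted p = 0.951). Neither passed the threshold, and 0.0% of all genes did in control cells and 0.00523% with IAA. With the replicate number as a block, Peg10 passed in control cells, at -0.93 ± 0.16 with an adjusted p of 0.00205, where 0.910% of all genes passed, and had an adjusted p of 0.0764 with IAA. Leaving out any 1 of the 4 control libraries gave Peg10 values from -1.22 to -0.64. Both cdSRCAP libraries lay below both wtSRCAP libraries for 14.1% of all genes in control cells and 14.6% with IAA.

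Sgce, which encodes a sarcoglycan and shares an imprinted domain on chromosome 6 with Peg10, was read beside it after its values had been seen. Sgce had 12 and 8.95 CPM in wtSRCAP controls, 3.46 and 2.83 in cdSRCAP controls, 12.9 and 5.2 with wtSRCAP and IAA, and 3.09 and 3.54 with cdSRCAP and IAA. Every cdSRCAP library was below every wtSRCAP library. Taken singly, the 2 comparisons showed this for 14.1% of all genes in control cells and 14.6% with IAA. The share of all genes that showed it in both together was not counted. The log2 fold change of Sgce was -1.74 ± 0.44 in control cells (edgeR, adjusted p = 1.00) and -1.42 ± 0.44 with IAA (adjusted p = 0.951). In the time course the pair did not move together, since Sgce had 7.19 and 5.08 CPM in control and 3.08 and 3.49 at 8 h, a log2 fold change of -0.89 ± 0.27 (edgeR, adjusted p = 0.191), where Peg10 had 0.39. Because each line is 1 clone, the form of SRCAP and the clone cannot be told apart. The trophoblast markers examined, summed, held 42.1 to 127 CPM in wtSRCAP controls and 28.3 to 32.5 CPM in cdSRCAP controls, and 42.8 to 139 against 31.1 to 34.2 CPM with IAA, while Tpbpa and Prl3d1 were at 0; their part in the Peg10 and Sgce values was not tested.

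**Figure D3:**
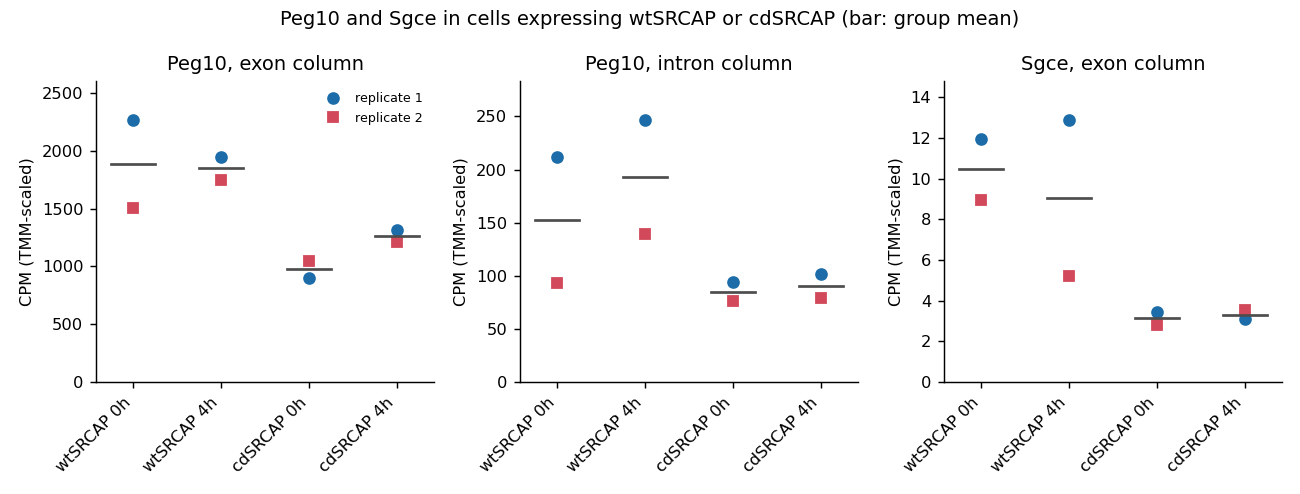
Peg10 in the exon and intron columns and Sgce in the exon column, in CPM, for each library of the wtSRCAP and cdSRCAP cells at 0 and 4 h of IAA (points by replicate number, bars for group means). The 4 cdSRCAP libraries have 900.1 to 1314 exon CPM of Peg10 and the 4 wtSRCAP libraries 1508 to 2264.

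Among the other members, Grb10 had an unadjusted p under 0.05 between the control lines, with 12.2 and 14.8 CPM in wtSRCAP and 6.10 and 9.56 in cdSRCAP, a log2 fold change of -0.78 ± 0.30 (edgeR, adjusted p = 1.00). With IAA the Grb10 libraries overlapped, and the value was -0.28 ± 0.30. Impact had -0.52 ± 0.38 in control cells and -0.08 ± 0.38 with IAA, and Dlk1 had -0.55 ± 0.49 and -0.58 ± 0.48. Cdkn1c differed more between replicate numbers than between lines: replicate 1 held 2.01 to 5.33 CPM over the 4 groups and replicate 2 held 8.01 to 9.96. Igf2r, Mest and Peg3 had log2 fold changes of 0.05, -0.01 and -0.11 in control cells, and Plagl1 had 0.34. The median over the members was -0.17 in control cells and -0.17 with IAA, where all genes had -0.02 and 0.02. The 2 comparisons between lines use different libraries, but both set the same 2 clones against each other.

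**Figure D4:**
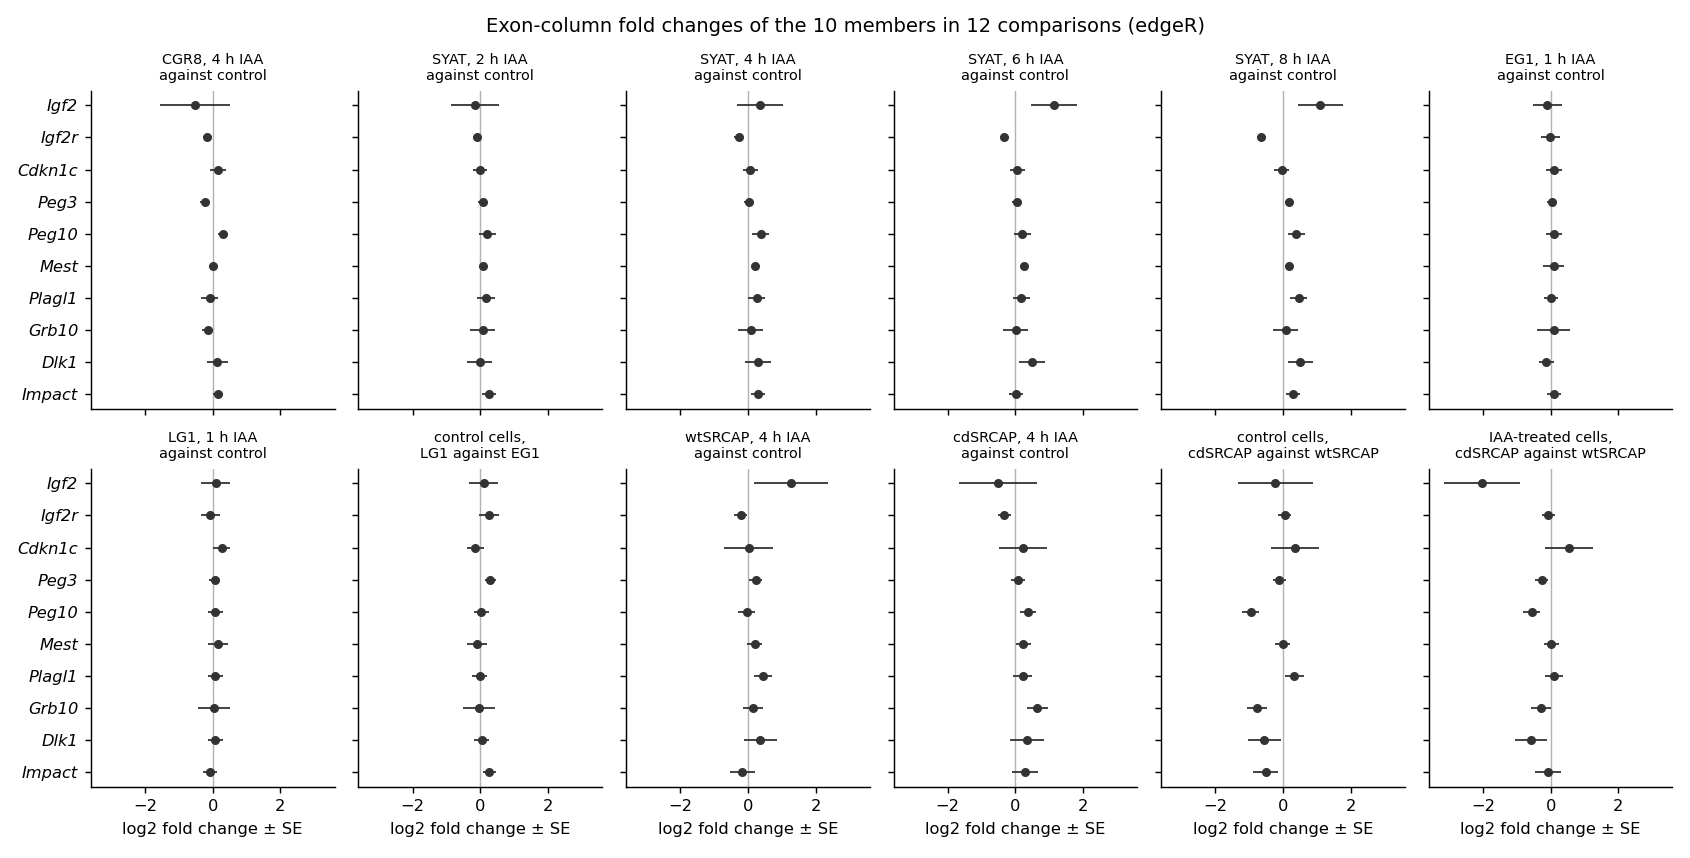
Log2 fold change (points) with its SE (lines) of the 10 members in the exon column for 12 comparisons fitted with edgeR, with 2 libraries per group. Igf2r reaches -0.64 at 8 h in SYAT cells and Peg10 -0.95 between cdSRCAP and wtSRCAP controls.

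In the exon column of sorted cells, 1 h of IAA left all members close to their controls. By the thresholds set for these libraries, an absolute log2 fold change over 0.25 and an unadjusted p under 0.05, no member was called in EG1 or in LG1, and 1.22% and 1.02% of 21020 genes were. In EG1 the log2 fold changes lay between -0.13 for Dlk1 and 0.10 for Impact, and in LG1 between -0.08 for Impact and 0.26 for Cdkn1c. Treated and control libraries overlapped for every member in both phases in this column. Of all genes, 13.4% were lower and 7.98% higher without overlap in EG1, and 10.4% and 7.83% in LG1. In the intron column of LG1, 4 of 9 members tested (Peg3, Peg10, Mest and Plagl1) were higher without overlap, as were 13.3% of all genes. Peg3 was the 1 such member in the intron column of EG1, where 8.2% of all genes were higher in this way. The response in LG1 minus that in EG1 was past an adjusted p of 0.05 for 0 members and for 0.0% of all genes, and its values lay between -0.18 for Impact and 0.20 for Dlk1.

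The replicate number was the main divide of the members in the sorted cells. Igf2r had 481, 467, 563 and 516 CPM in the 4 libraries of replicate 1 and 319.7, 327, 395 and 397 in those of replicate 2, in the order EG1 control, EG1 with IAA, LG1 control and LG1 with IAA. Grb10 went the other way, with 74.2, 81.1, 68.0 and 69.8 CPM in replicate 1 and 136, 144, 138 and 141 in replicate 2, a ratio of 1.91 of replicate 2 over replicate 1. Mest had 168 to 203 CPM in replicate 1 and 256 to 286 in replicate 2. For 7 of the 10 members all libraries of 1 replicate number lay on the same side of those of the other, as they did for 36.3% of all genes. This was so for 1 of 10 members in the time course (7.45% of all genes), which was Grb10, for 2 of 10 in wtSRCAP and cdSRCAP cells (18.4%), and for 6 of 10 in CGR8 cells (33.8%), where only 2 libraries stand on each side. In the time course Grb10 was the higher in replicate 1, by a ratio of 1.61, which is the reverse of the sorted cells.

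**Figure D5:**
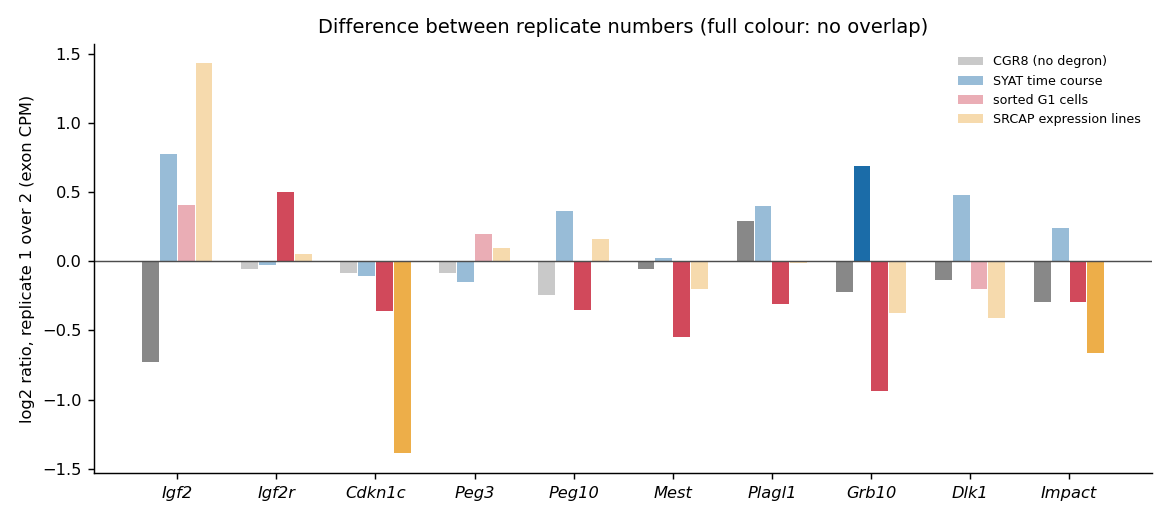
Log2 of the ratio of mean exon CPM, replicate 1 over replicate 2, for each member in the 4 count tables, with bars from 0. Full colour marks members whose libraries of the 2 replicate numbers do not overlap, as for Grb10, Mest and Igf2r in the sorted cells.

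Between the phases, LG1 control against EG1 control, no member was called by the main test, which leaves the replicate number out, and 1.44% of all genes were. Peg3 had 299 and 269 CPM in EG1 and 375 and 323 in LG1 and was the 1 of 10 members whose libraries did not overlap, a share close to the 10.7% of all genes that were higher in this way. Its log2 fold change was 0.30 ± 0.16 (edgeR, adjusted p = 1.00). Igf2r had 481 and 319.7 CPM in EG1 and 563 and 395 in LG1, and Impact 278 and 342 against 334 and 412. Each of these 3 genes was higher in LG1 than in EG1 within both replicate numbers, a pattern that was not counted over all genes. With the replicate number as a block, which 7.31% of all genes passed by the thresholds, the log2 fold changes were 0.30 ± 0.061 for Peg3, 0.27 ± 0.064 for Igf2r and 0.27 ± 0.062 for Impact, with adjusted p by edgeR of 0.0125, 0.0392 and 0.0290. Dnmt1, the maintenance DNA methyltransferase, was higher in LG1 by 0.46 ± 0.17 (edgeR, adjusted p = 1.00), the ES cell markers summed to 1918 to 2243 CPM in EG1 and 2257 to 2534 CPM in LG1 controls, and the part of both in the members' values was not tested. In this comparison 4 markers were called. Esrrb and Zfp42, of 10 ES cell markers, were higher, and Pdgfra and Sox17, of 7 primitive endoderm markers, were lower. Summed over all 7, the primitive endoderm markers held 195 to 221 CPM in EG1 and 214 to 223 CPM in LG1 controls, which overlapped.

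The intron columns add little on the members, because they do not hold the same kind of reads in every table. Among genes with a single exon block and at least 20 exon counts in every library, which have no intron, 51.9% to 52.2% had intron counts in the time course and 46.0% to 46.2% in EG1, but at most 0.100% in CGR8, LG1, wtSRCAP and cdSRCAP cells. In the time course the intron count of Igf2r was 0.937 to 1.00 times its exon count, and that of Peg10 1.01 times. For both genes the intron values there restate the exon values. Peg3 and Mest had ratios of 1.02 to 1.05 and 1.02 to 1.06, and Impact 0.793 to 0.892. The ratios moved more for Cdkn1c (0.493 to 0.847), Plagl1 (0.410 to 0.894) and Grb10 (1.13 to 1.65), and Dlk1 had no intron count there. Igf2r at 8 h had an intron log2 fold change of -0.72 ± 0.15 (edgeR, adjusted p = 0.131), and an adjusted p of 0.00411 in DESeq2. Igf2 had no intron count in any library, and Igf2r had none in the 4 LG1 libraries although it had 395 to 563 exon CPM there. Igf2r intron counts were 0 in 2 of 4 CGR8 libraries and in 7 of 8 wtSRCAP and cdSRCAP libraries. Whether the overlap with Airn sets these zeros was not tested.

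No member was called in the intron column of any comparison. The backgrounds were 0.022% of all genes in CGR8; 0.0%, 0.0%, 0.0136% and 0.00679% at 2, 4, 6 and 8 h; 2.28% in EG1 and 3.94% in LG1; 0.299% with wtSRCAP and 0.236% with cdSRCAP; 0.102% between the control lines and 0.0157% between the lines with IAA; and 0.0% for the difference of responses. Peg10 introns had 94.0 and 75.9 CPM in cdSRCAP and 211 and 92.9 in wtSRCAP controls, and 102 and 79.6 against 246 and 139 CPM with IAA. With IAA the libraries did not overlap, as for 20.1% of all genes that were lower in this way, and the log2 fold change was -1.08 ± 0.38 (edgeR, adjusted p = 0.385). With the replicate number as a block, Peg10 introns passed in this comparison (edgeR, adjusted p = 0.0324). In that setting 0.0% to 9.02% of all genes passed over the 26 comparisons. In CGR8 cells Peg10 introns had 37.9 and 58.0 CPM in control and 69.7 and 81.3 with IAA, a log2 fold change of 0.65 ± 0.25 (edgeR, adjusted p = 0.925). Plagl1 introns at 8 h had a log2 fold change of 1.07 ± 0.36 (edgeR, adjusted p = 0.271), with 8.36 and 6.52 CPM in control and 17.4 and 13.9 at 8 h.

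The wider set of imprinted genes gave few calls. Of 44 other imprinted protein-coding genes, 37 to 39 were tested in the exon column of a table, and 2 were called over the 14 exon comparisons. Both calls were in LG1 after 1 h of IAA by an unadjusted p, where 1.02% of 21020 genes were called. They were Rasgrf1, a guanine nucleotide exchange factor, at -1.36 ± 0.44, and Asb4, an ankyrin repeat protein, at 1.08 ± 0.42 (edgeR, adjusted p = 1.00 for both). The median log2 fold change of the other imprinted genes was 0.02 in LG1 after 1 h of IAA. In SYAT cells at 8 h it was -0.06, where the members had 0.25 and all genes 0.03. Of 8 factors that keep imprints (Zfp57, Zfp445, Trim28, Setdb1, Dppa3, Dnmt1, Uhrf1 and Ctcf), none was called after IAA in any exon comparison. Dnmt1 between the phases was the 1 call, by thresholds that 1.44% of all genes passed. The paper names Trim28 among the genes raised in SYAT cells after SRCAP loss, from intronic reads with DESeq2, which is another measure and test. The exon test here called 0.0677% of all genes at 6 h, so a missing call does not show that these factors were unchanged. Of 10 genes linked to Igf2 and Igf2r (Igf1, the receptors Igf1r and Insr, 4 IGF-binding proteins and 3 Igf2 mRNA-binding proteins), 9 were tested in each comparison and none was called in an exon comparison.

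Of the noncoding RNAs of the members' domains, H19 beside Igf2 had 6.93 to 8.99 CPM in CGR8 cells, 0.0826 to 0.616 CPM in the time course and at most 0.293 CPM in wtSRCAP and cdSRCAP cells. Meg3, beside Dlk1, had 14.1 to 17.5 CPM in CGR8 and 2.15 to 5.26 CPM in the time course, and no count in any of the 8 wtSRCAP and cdSRCAP libraries; each table was scaled on its own. In EG1 Meg3 was called lower after 1 h of IAA by an unadjusted p, as 1.22% of all genes were called there. It had 0.283 and 0.180 against 0.556 and 0.592 CPM, a log2 fold change of -1.29 ± 0.50 on a few counts (edgeR, adjusted p = 1.00). Airn, antisense to Igf2r, had 0.294 to 1.23 CPM in the exon column of the time course and a log2 fold change of 0.85 ± 0.79 at 8 h, which rested on replicate 2, since replicate 1 had 0.294 CPM, below the 0.354 and 0.496 CPM of the controls. Kcnq1ot1, which runs through the domain of Cdkn1c, was a single block of 93092 bases with 182 to 676 CPM in the time course and overlaps Kcnq1.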

How the data were processed

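Nuclear RNA from 30 mouse ES cell libraries was analysed. The authors aligned directional reads to mm10 with STAR, counted them over exons and introns with featureCounts, and deposited whole-number counts per gene in 4 tables; SAMtools 1.10, Picard and DESeq2 are also named in the submitters' processing notes. Deposited tables of the authors' own comparisons (fold changes and p-values) were not used. Reads over overlapping genes can be assigned differently by other counting rules.

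Each table and column type was fitted once with edgeR 4.0.16 (R 4.3.3): TMM scaling, a filter on low counts (minimum count 10, minimum total 15), quasi-likelihood tests between group means and Benjamini-Hochberg adjustment over all genes tested. Each group had 2 libraries, so p-values rest on a spread shared by all groups of a table. The main tests left the replicate number out, and it entered only where a block is named. Thresholds were an absolute log2 fold change over 0.5 and an adjusted p under 0.05, or for sorted cells 0.25 and an unadjusted p under 0.05. The code was tested on simulated data. Intron columns of LG1 and EG1 were not compared with each other. Exon lengths and positions came from GENCODE vM21 and promoters from RefSeq; of 55401 genes, 55141 matched by identifier without version.

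The 10 members were always named; other imprinted genes, factors that keep imprints and genes of the IGF axis were named where called in an exon column, and Sgce was added after its values were seen. The members and lists were chosen with earlier results of these data known. Alternatives were DESeq2 1.42.0, RLE scaling, no filter, the replicate number as a block, only the groups compared, an adjusted p threshold in sorted cells, intron counts less exon counts in the time course, and leaving out each library. Deviations from group means in libraries with the same replicate number correlated at 0.372 to 0.586 in sorted cells and 0.259 to 0.376 in wtSRCAP and cdSRCAP cells (exon columns, all 6 pairs of groups over 0.1), which was taken as pairing from the data, since the labels do not say what a number marks. In the time course 6 of 10 pairs were over 0.1, and in CGR8 cells the value was 0.0736.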

Additional observations from a re-analysis of the deposited data

Results flagged for a closer look

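In the intron column, Mest moved in opposite directions after 4 h of IAA in the 2 SRCAP lines. With wtSRCAP it had 90.7 and 93.1 CPM in control and 96.1 and 112 CPM with IAA, a log2 fold change of 0.18. With cdSRCAP it had 98.4 and 90.8 CPM in control and 86.5 and 82.0 CPM with IAA, a log2 fold change of -0.17. Treated and control libraries did not overlap in either line, a pattern that 20.4% of all genes showed as higher with wtSRCAP and 24.6% as lower with cdSRCAP. The difference of the responses was -0.35 and did not pass the test (edgeR, adjusted p = 1.00), and the exon column had 0.20 and 0.24.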

How the results depend on the processing

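Over 26 counts of members called and 243 alternative settings, the count changed in 12 and stayed at 0 in 231. In the exon column, 1 member was called at 8 h of the time course in DESeq2, without the filter and with the replicate block (Igf2r; adjusted p = 0.0272 with the block, where 3.30% of all genes were called). With the replicate block, 3 were called between LG1 and EG1 controls (Peg3, Igf2r and Impact) and 1 between the control lines (Peg10). In the intron column, 1 was called at 8 h in DESeq2 (Igf2r), and without the filter 1 with cdSRCAP (Igf2r), 2 between the control lines (Igf2r and Peg10) and 1 between the lines with IAA (Peg10), the last also with the block (adjusted p = 0.0324). Igf2r had intron counts in 1 of those 8 libraries. Over the 26 comparisons, the share of all genes called was 0.0% to 2.92% without the filter, 0.0% to 2.41% in DESeq2 and 0.0% to 9.02% with the block. Leaving out 1 library changed the intron calls in CGR8 (Igf2r and Peg10, without replicate 2 of the control). It also changed them in EG1 (Plagl1, without replicate 2 of the treated cells). Such a fit leaves 1 group with a single library, so these calls are not read as a result about the members. The block changed no other call, no member's fold change reversed its sign past a threshold, and the causes were not tested. A limit of 3 counts came to 0.116 to 0.293 CPM in wtSRCAP and cdSRCAP libraries, where Igf2 had 0.194 to 3.32 CPM, so its folds there rest on few counts.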
